A study of Arabidopsis thaliana with 24 samples.

Results

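The transcripts described here are 49 probe sets whose mean signal in wild-type Arabidopsis at 48 h was at least 2-fold higher with each of the synthetic elicitors DCA and INA, and whose signal in the mutant npr1-3 was little or not higher with DCA. They were chosen by their values at 48 h. The log2 signal (signals under 1 set to 1) was averaged over the 3 arrays of a group, and a probe set was kept where DCA minus mock and INA minus mock were both at least 1 in Col-0, DCA minus mock was under 0.3 in npr1-3, and the mean over all 24 arrays was at least 6.2. Of 22746 non-control probe sets, 13685 reached that mean, 289 of these passed both limits in Col-0, and 49 also passed the limit in npr1-3. The supplied platform annotation gives 1 gene for 23 of the 49, and the other 26 have no entry and are unnamed here.

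RNA was taken from all aerial parts of Arabidopsis thaliana plants, 2 weeks old and grown in soil, and was hybridised to Affymetrix ATH1 arrays. Each of 8 groups had 3 independent biological replicates, per the labels. Plants of accession Col-0 were sprayed with 100 µM DCA (3,5-dichloroanthranilic acid), 100 µM INA (2,6-dichloroisonicotinic acid) or the mock solution, 0.002% DMSO in water, and were harvested after 48 h or 6 d. The mutant npr1-3 received DCA or mock and was harvested after 48 h. The treated plants were also exposed to DMSO, and INA on npr1-3 and npr1-3 at 6 d were not among the groups. Whole shoots mix cell types, so fewer cells of a type and less RNA per cell cannot be told apart in any value below.

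NPR1 is a coactivator of the responses to salicylic acid, the hormone of defence against biotrophic pathogens. After a rise in salicylic acid it accumulates in the nucleus and works there with TGA transcription factors to switch on defence genes. INA is a long-used chemical mimic of salicylic acid signalling, and DCA is a related synthetic elicitor. Jasmonate and ethylene drive another branch of defence, directed at necrotrophs and insects, with the plant defensin PDF1.2 as its standard marker.

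The 24 arrays had trimmed mean signals between 500.05 and 500.07 and median signals between 115.07 and 148.39. RCA, which encodes rubisco activase, is the 1 of 12 listed green tissue markers that the annotation ties to a probe set. Its signals ran from 17430 to 37160 over the 24 arrays. At 6 d the replicate 1 arrays of DCA and INA stood apart in several transcripts. Of the 9 root markers listed, the annotation ties 3 to a probe set. PYK10 is a root β-glucosidase that seedling shoots can also express. It read 5422 on DCA replicate 1 and 8896 on INA replicate 1, against 2346 to 3440 on the other 7 arrays of 6 d. The root hair expansins EXPA7 and EXPA18 were dim and read 8.887 to 104.5 on all 9. The highest of these was EXPA18 on INA replicate 1, where EXPA7 read 16.27. On DCA replicate 1 EXPA7 read 8.887 and EXPA18 41.74. FAMA, a guard cell factor (1 of 6 guard cell and vascular markers), read 130.4 to 201 on these 9 arrays. The annotation ties 0 of 4 flower markers to a probe set. The part in the results of the markers and of the DCA and INA replicate 1 arrays was not tested. Values without one or the other of these arrays are given beside several results below. No probe set was listed for NPR1 itself in the annotation used here, so the mutation was not checked by its own transcript.

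At 48 h, on the arrays that chose them, the 49 had log2 changes with DCA from 1.03 to 3.29, with a median of 1.33, and with INA from 1.01 to 4.63, with a median of 1.28. In npr1-3 the change with DCA ran from -0.99 to 0.29 with a median of 0.05, positive in 27 and negative in 22. These contrasts made the selection and carry no test. All 3 DCA arrays lay above all 3 mock arrays in 47 members (15.3% of the tested probe sets did so), all 3 INA arrays did in 38 (10.1%), and both held in 38 (5.99%), so that in 11 members the 3 arrays of an elicitor and of mock overlapped even at the time of selection. Just inside the limits were AT3G60440, a phosphoglycerate mutase family gene, with a DCA change of 1.03 and an INA change of 1.01, and SAG101 with a DCA change of 1.04. Just outside were AT2G41730 and RHF1A, with DCA changes of 0.999 and 0.995, and AT1G22180 and Hsp70-2, with INA changes of 0.989 and 0.969. In npr1-3 the nearest named probe sets inside were ACA.l at 0.26 and AT4G16660 at 0.25, and outside AT3G19010 and AT4G22530, both at 0.31.

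Which probe sets pass depended on single arrays of 48 h. When each of the 15 was left out in turn, between 34 and 96 passed. Leaving out Col-0 mock replicate 2 gave 96, of which 44 were among the 49, leaving out INA replicate 1 gave 90 with 46 shared, and leaving out npr1-3 DCA replicate 2 gave 81 with 46 shared. A total of 6 of the 49 passed all 15 times, among them PDF1.2 and AT3G01830 and otherwise unnamed probe sets, and 36 passed at least 12 times. The mean of 24 arrays takes in those of 6 d. By the mean over the 15 arrays of 48 h, 46 of the 49 would pass, and the 3 that would not, AT4G14610, 250431_at and 250769_at, were not called in any comparison at 6 d.

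Receptor and signalling components came first in the order of roles. SAG101, a partner of the immune regulator EDS1 in signalling from intracellular receptors, read 130, 92.57 and 114.8 with mock at 48 h, 323.5, 216.2 and 170.7 with DCA, and 227.5, 266.4 and 244.1 with INA. In npr1-3 it read 114.6, 97.51 and 134.1 with mock and 92.16, 131.1 and 107.7 with DCA. All 6 elicitor-treated Col-0 arrays lay above all 9 others of 48 h. AT1G72920, a member of the TIR-NBS family of intracellular immune receptors, read 190.6, 195.1 and 144.6 with mock, 445.3, 424 and 346.7 with DCA and 217.8, 515.8 and 417.8 with INA, so its lowest INA array lay little above mock. AT4G14610, annotated as a pseudogene of the nucleotide-binding receptor family, was dim on mock at 52.86, 5.073 and 34.19 and read 101.3, 76.09 and 134.4 with DCA. Its npr1-3 signals, 55.31, 26.4 and 77.74 with mock and 57.06, 75.6 and 33.49 with DCA, overlapped those of Col-0 mock.

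Calcium-binding EF-hand proteins, which relay calcium signals, gave 3 of the 23 named members. AT3G01830 had the largest fall of the mutant below the wild type. Its signals with mock were 137.3, 79.93 and 54.41 in Col-0 and 46.73, 33.78 and 41.73 in npr1-3. With DCA they were 947.3, 976.6 and 604.7 in Col-0 and 16.22, 52.4 and 28.7 in npr1-3, a log2 difference of -4.83, or 28.4-fold lower in the mutant. INA gave 400.6, 1699 and 870.9, so every elicitor-treated Col-0 array stood above every other array of 48 h. AT1G21550 read 187.6, 494.4 and 242.5 with mock, 944.5, 873.1 and 1086 with DCA and 209.3, 1235 and 741.2 with INA, and its INA replicate 1 lay within the mock arrays. AT4G27280, named after its values were seen, was among the brightest, with 1978, 3477 and 2123 on mock and 6683, 6895 and 8520 with DCA. In npr1-3 it read 1478, 2359 and 2342 with mock and 1324, 1975 and 1550 with DCA.

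AT5G05300 encodes IDL6, a small secreted peptide of the IDA-like family. It read 137, 247.7 and 176.3 with mock at 48 h, 823.7, 762.4 and 705.3 with DCA and 756.6, 1253 and 839.5 with INA. In npr1-3 it read 101.8, 77.22 and 139.8 with mock and 122, 147.6 and 71.03 with DCA. The elicited Col-0 arrays were separate from all others, and with DCA the mutant mean lay 7.02-fold below the wild type. WRKY6, a transcription factor of senescence and defence, read 140.5, 88.78 and 63.32 with mock, 196.5, 210.5 and 167.8 with DCA and 252.1, 271.8 and 277.8 with INA. Its npr1-3 signals, 123.7, 98.48 and 69.63 with mock and 61.8, 146.9 and 114.1 with DCA, were in the range of Col-0 mock, apart from 1 array at each end.

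The plant defensins PDF1.2 and PDF1.2b are antimicrobial peptides induced by jasmonate and ethylene. They are close paralogs, and the probe set of PDF1.2b is of a kind that can bind related transcripts, so their signals may not be separate. PDF1.2 read 361.6, 132.2 and 375 with mock at 48 h, 1335, 1196 and 1212 with DCA, and 219.8, 2055 and 1259 with INA. INA replicate 1 lay within the mock arrays. In npr1-3 mock the signals were 664.8, 252.2 and 541, and with DCA 126.4, 442.1 and 251.5. These 2 genes had the lowest npr1-3 changes of the named members, -0.90 for PDF1.2 and -0.99 for PDF1.2b, but their arrays overlapped between DCA and mock in the mutant.

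Genes of metabolism and of less certain role followed. AT2G32030, of the GNAT acetyltransferase family, read 230.8, 243 and 136.2 with mock and 574, 616.2 and 526.6 with DCA in Col-0, and 173.3, 66.5 and 108 with mock and 85.11, 79.04 and 101.3 with DCA in npr1-3. The mutant with DCA lay 6.49-fold below the wild type with DCA and below every Col-0 mock array as well. AT3G54150, of a methyltransferase family, read 62.95, 74.39 and 63.14 with mock, 329.8, 254.9 and 174 with DCA and 215.9, 305.7 and 245.7 with INA. In npr1-3 with DCA it read 102.2, 87.67 and 67.34, below all 6 elicited arrays of Col-0. AT3G47540, of a chitinase family, had changes of 1.29 with DCA and 1.44 with INA, and AT1G72240, whose role is not given here, of 1.98 and 2.57. Those of AT1G04770, a tetratricopeptide repeat gene, were 1.33 and 1.06.

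A change near 0 in npr1-3 can come from a low level or from a mock level that is already high. By group means both occurred, the second in few members and mostly with overlapping arrays. The mutant mean with DCA was below the wild-type mean with DCA in 48 of the 49 and by at least 1 on the log2 scale in 37, with a median difference of -1.38 over the 49. All 3 mutant DCA arrays lay below all 3 wild-type DCA arrays in 42 (19% of the tested probe sets did so). The same arrays chose the members, so nothing is read from these counts. On the same arrays the mutant mean with DCA was within 0.5 of the Col-0 mock mean in 28 members, from which nothing is read either. With mock, npr1-3 minus Col-0 had a median of -0.14 and ran from -1.08 to 2.34. It was at least 1 in 4 members (1.67% of all tested), AT4G14610 at 1.21, PDF1.2b at 1.03 and the unnamed 266142_at and 253732_at at 1.35 and 2.34. Of these, only 266142_at had all 3 npr1-3 mock arrays above all 3 Col-0 mock arrays. AT1G04770 and AT1G72240, with 0.88 and 0.80, were next among the named. The exception to the fall, 253732_at, was 0.96 higher in the mutant with DCA than in the wild type with DCA, and its Col-0 mock arrays ran from 8.627 to 226.3. Unnamed probe sets are named here and below after their values were seen.

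**Figure D1:**
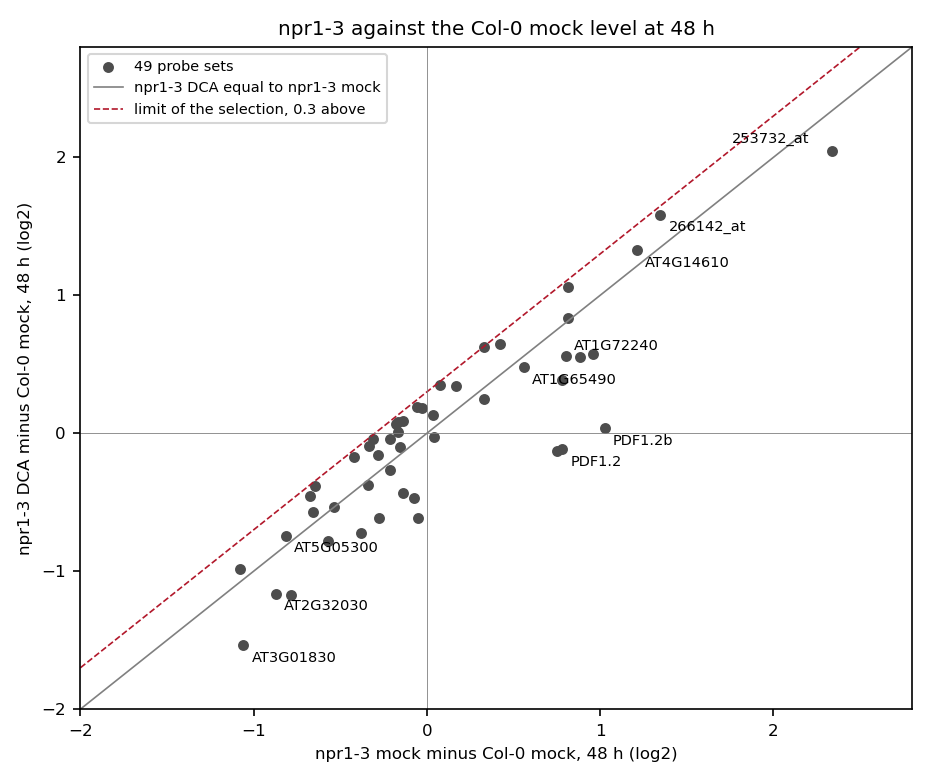
Levels of the 49 probe sets in npr1-3 at 48 h as log2 differences from the Col-0 mock mean, with mock on the horizontal and DCA on the vertical axis. Each point is 1 probe set. The grey diagonal marks no change with DCA in the mutant and the dashed line the selection limit of 0.3 above it, so the points lie under that line by choice. The points spread along the diagonal from AT3G01830 at the lower left to 253732_at at 2.34.

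**Figure D2:**
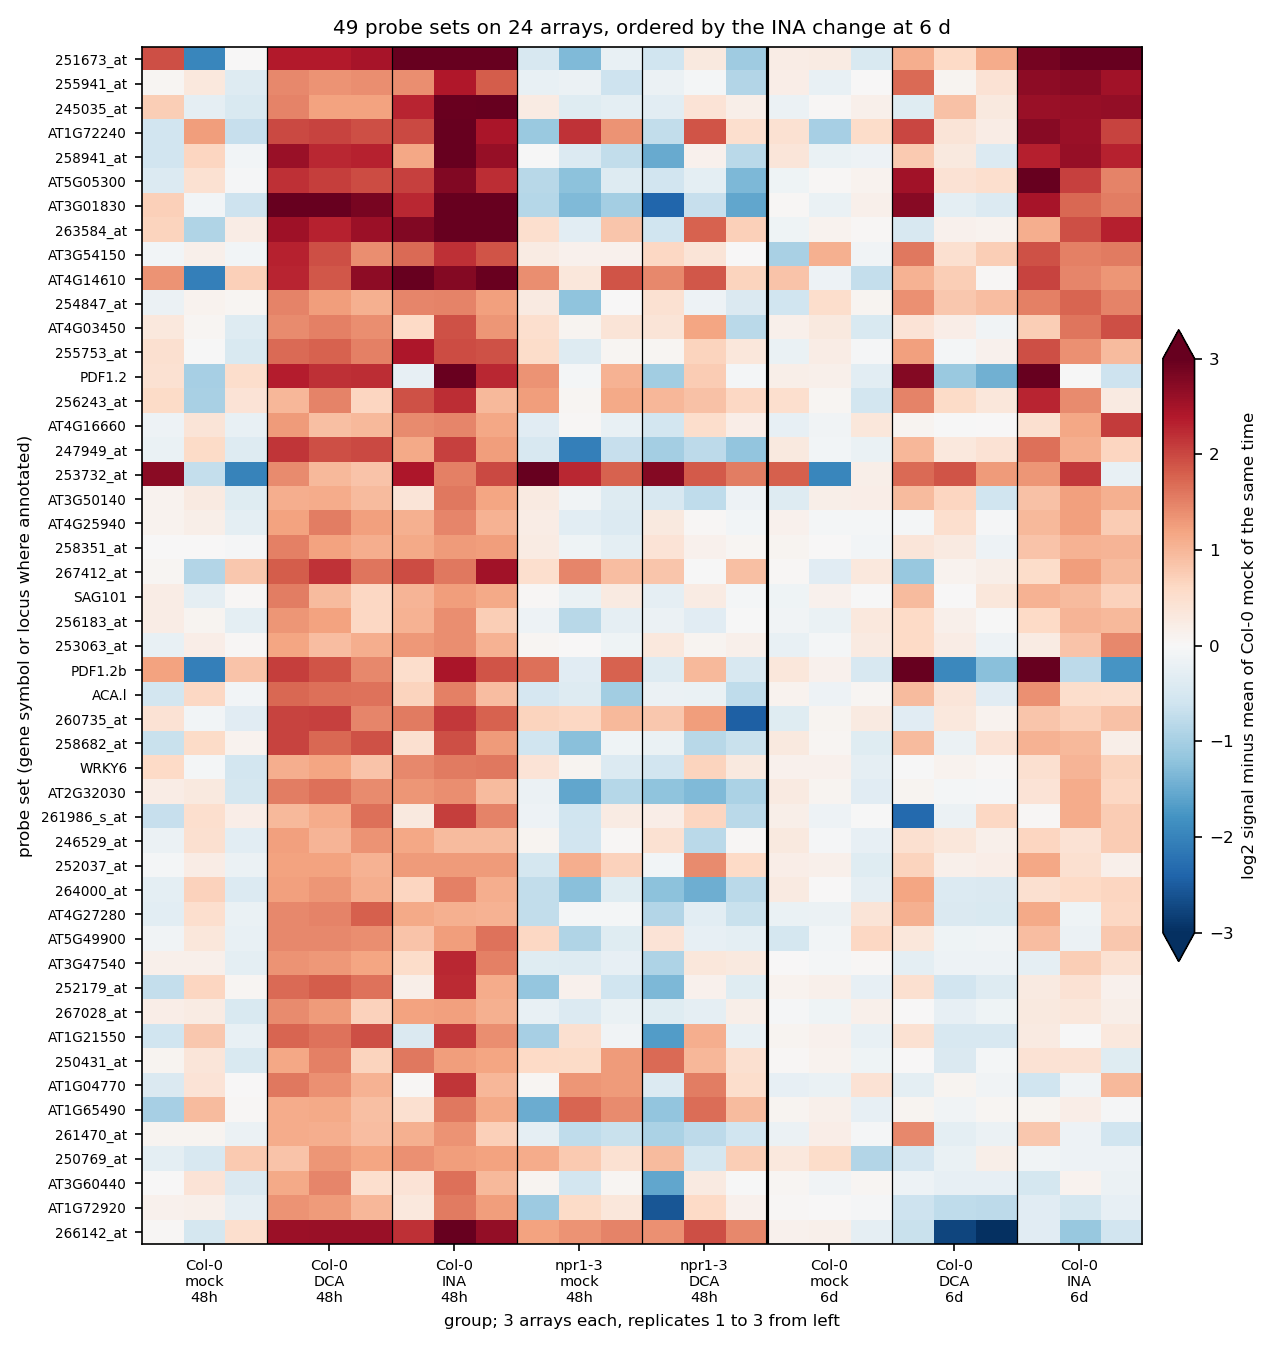
Log2 signal of the 49 probe sets on each of the 24 arrays, minus the mean of the Col-0 mock arrays of the same time, in rows ordered by the INA change at 6 d. Red is higher and blue lower, and colours are capped at 3 either way. The elicited Col-0 columns of 48 h are red by selection. At 6 d the 3 INA columns are red in the upper rows and the DCA columns are paler, with DCA replicate 1 darker than the other 2.

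At 6 d, on 9 arrays that the limits on change did not use, most of these transcripts had a higher mean with INA than with mock, and 12 passed the test. The INA change was above 0 in 45 of the 49 (49.7% of all 13685 tested probe sets), with a median of 0.85 on the log2 scale, or 1.8-fold, against -0.0022 over all tested. It was at least 1 in 19 (3.79% of all), and all 3 INA arrays lay above all 3 mock arrays in 28 (12.8% of all) and below them in 2 (13.2%). With limma fitted on all 24 arrays and Benjamini-Hochberg adjustment over the 13685, 12 of the 49 were called higher at an adjusted p under 0.05 and 0 lower, where 1.56% of all tested were called higher and 0.278% lower. At an unadjusted p under 0.05, 27 were higher. The 12 rose between 1.97-fold and 20.2-fold, and none had overlapping INA and mock arrays.

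The called and named ones were 4. The peptide gene AT5G05300 read 162.4, 183.5 and 192 with mock at 6 d and 1490, 742.3 and 502.4 with INA. The 3 INA arrays were well above the mock arrays, which lay close together. Its log2 change was 2.20 ± 0.45 (SE, 3 arrays a group), 4.6-fold, with limma's adjusted p = 0.0102. Without INA replicate 1 the change was 1.77 with adjusted p = 0.06, and without mock replicate 1 it was 2.13 with adjusted p = 0.0547.

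AT3G54150, the methyltransferase family gene, read 23.17, 95.33 and 41.71 with mock and 171, 128.6 and 133.2 with INA. The mock arrays spread over a wider range than the INA arrays, and did not reach them. The change was 1.66 ± 0.38 (SE) with limma's adjusted p = 0.0215. The call was kept in 1 of 6 fits that each left out an INA or mock array of 6 d. The adjusted p was 0.0847, 0.0535 and 0.0588 without INA replicate 1, 2 and 3, and 0.17 and 0.0752 without mock replicate 1 and 3. Without mock replicate 1, the lowest, the change was 1.18.

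AT4G25940, of an ENTH/ANTH domain family that works in membrane trafficking, read 148.2, 129.4 and 130.8 with mock and 268.2, 316.9 and 228.6 with INA. This rise, 1.98-fold, was the smallest of the 4 and had the smallest standard error. The log2 change was 0.98 ± 0.22 (SE) with limma's adjusted p = 0.0174. It was 0.0872 without INA replicate 2, and 0.089 and 0.0646 without mock replicates 2 and 3.

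AT4G16660, of the HSP70 chaperone family, read 94.54, 104.7 and 141.3 with mock and 157.2, 250.4 and 479.7 with INA. INA replicate 3 was the highest of its 24 signals, and INA replicate 1 lay just above the highest mock array. The change was 1.25 ± 0.32 (SE) with limma's adjusted p = 0.0497, at the limit. It kept its call in 1 of 6 fits that left out an array: the adjusted p was 0.094 and 0.195 without INA replicates 2 and 3, and 0.207, 0.178 and 0.0586 without mock replicates 1, 2 and 3. Without INA replicate 3 the change was 0.83.

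The other 8 called are unnamed. The largest change, 4.33, was that of 251673_at, which read 99.26, 101.2 and 62.62 with mock and 622.4, 2634 and 3149 with INA (limma's adjusted p = 0.000893). The INA arrays of 245035_at read 835.1, 855.5 and 864.2 against 123.8, 141.6 and 153.5 with mock, with a change of 2.61 and an adjusted p of 8.04e-05. Of the 12, 5 kept their call whichever INA or mock array of 6 d was omitted, in 6 fits: 251673_at, 255941_at, 245035_at, 258941_at and 258351_at, all of them unnamed. Over all settings of the fit, limma's highest adjusted p was 0.0089 for 255941_at and 245035_at. It was over the limit for 251673_at (0.0594), 258351_at (0.129) and 258941_at (0.155). The count of called members was 11 without INA replicate 1, of which 9 were among the 12. It was 6 without INA replicate 2, 6 without mock replicate 1 and 7 without mock replicate 3.

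Named members that were not called with INA at 6 d fell into separate kinds. AT3G01830 read 124, 104.7 and 133.8 with mock and 667, 396.2 and 346.9 with INA, without overlap, and its change of 1.91 ± 0.63 (SE) had limma's adjusted p = 0.145. Without INA replicate 1 it was 1.62 with an adjusted p of 0.425, and without DCA replicate 1 the adjusted p was 0.0274. SAG101 read 136.2, 162.1 and 148.4 with mock and 306.8, 287.2 and 241.4 with INA, also without overlap, with a change of 0.90 ± 0.25 and an adjusted p of 0.0715. WRKY6 read 162.2, 160.6 and 123 with mock and 204.1, 298.1 and 234.3 with INA, again without overlap, with an adjusted p of 0.265. AT4G03450, an ankyrin repeat gene named after its values were seen, had a change of 1.42 and an adjusted p of 0.0851, and 0.039 without INA replicate 1. AT1G72240, with a change of 2.45, and AT4G14610, with 1.60, had adjusted p-values of 0.101 and 0.229.

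The defensins differed from these by their spread. PDF1.2 read 357.3, 350.3 and 252.6 with mock at 6 d and 7945, 312.3 and 207 with INA. PDF1.2b read 405, 346.9 and 229.5 with mock and 10920, 183.8 and 92.73 with INA. In both, INA replicate 1 alone was high and the other 2 INA arrays lay at or below mock. The changes of 1.34 ± 1.11 and 0.84 ± 1.41 (SE) had limma's adjusted p-values of 0.6 and 0.826. Without INA replicate 1 the changes were -0.31 and -1.29, with adjusted p-values of 0.97 and 0.838. On the array where they were high, PYK10 was also at its highest. Of the dim root hair expansins, EXPA18 read 104.5 there, its highest at 6 d. EXPA7 read 16.27 there, below INA replicates 2 and 3 (25.29 and 31.98). A link between these signals and the defensins was not tested.

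A last kind lay at or near the level of mock. AT1G21550 read 471.8, 487.5 and 379.8 with mock and 532.7, 438.5 and 555.1 with INA. AT1G72920 read 366.3, 361.3 and 352 with mock and 285.1, 249 and 302 with INA, all INA arrays below all mock arrays, with a change of -0.37 and an adjusted p of 0.79. The INA changes of AT3G60440 and AT1G04770 were -0.20 and 0.089. AT1G65490, whose role is not given here and which was named after its values were seen, read 11140, 11710 and 8887 with mock and 11070, 11990 and 10310 with INA. Its mock signals at 48 h had been 860.7, 3308 and 1762, so the mock level at 6 d was already above every elicited Col-0 array of 48 h, the highest of which was 5146.

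**Figure D3:**
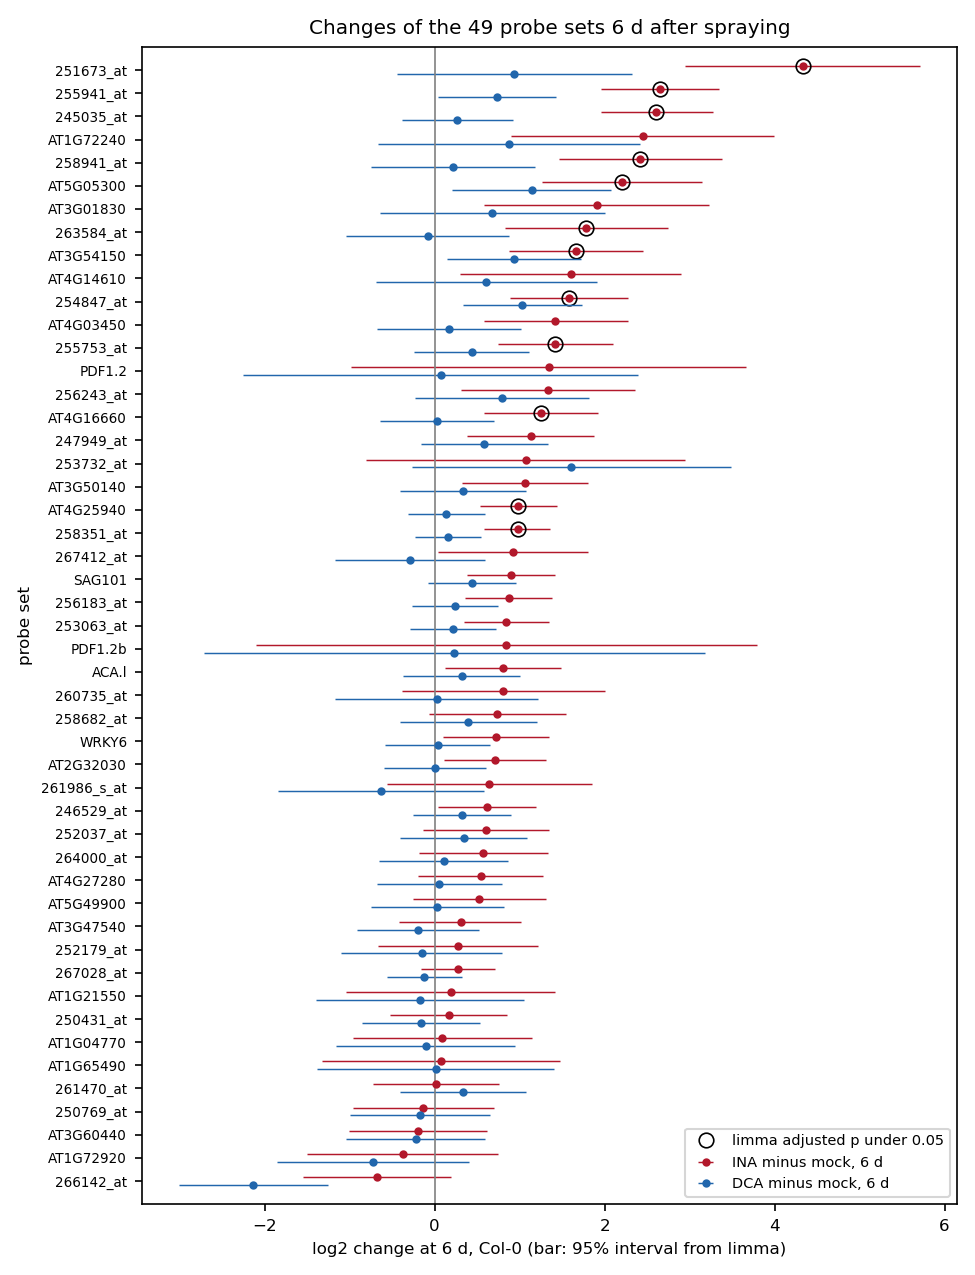
Log2 change of each of the 49 probe sets 6 d after spraying in Col-0, for INA minus mock in red and DCA minus mock in blue, with 95% intervals from limma. Black rings mark an adjusted p under 0.05, held by 12 INA changes and 0 DCA changes. The red points lie to the right of the blue ones in 47 of 49 rows.

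With DCA at 6 d, 0 of the 49 were called by limma, as were 0% of all 13685 tested probe sets. At an unadjusted p under 0.05 there were 5 of the members, 4 of them higher, and 445 of all tested. The median change was 0.17 against -0.038 over all tested. It was above 0 in 36 members (45% of all tested) and at least 1 in 3 (1.31%). All 3 DCA arrays lay above mock in 4 members (7.3% of all) and below in 4 (7.96%). The 95% interval of a member's change had a median half-width of 0.79.

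The DCA arrays of 6 d were not alike. Replicate 1 was the highest of the 3 in 37 of the 49 members, and at least 2-fold above each of the other 2 in 11 (5.07% of all tested). For the count of 37 no share over all tested probe sets was taken, so nothing is read from it. The median over the members, relative to the mock mean of 6 d, was 0.59 on replicate 1, 0.080 on replicate 2 and -0.013 on replicate 3. On the INA arrays it was 0.87, 1.02 and 0.75, and on the mock arrays 0.085, 0.026 and -0.027. AT5G05300 read 1019, 239.8 and 252 with DCA, AT3G01830 796.9, 97.94 and 90.65, PDF1.2 2149, 146.4 and 116.7, and PDF1.2b 4701, 83.27 and 133.4. In each, replicate 1 was far above mock and the other 2 arrays were much closer to it or below it. Without replicate 1 the DCA change of AT5G05300 was 0.46 in place of 1.14, that of AT3G01830 -0.35 in place of 0.67, that of PDF1.2 -1.27 in place of 0.072 and that of PDF1.2b -1.59 in place of 0.23, and none was called with or without it. WRKY6, at 145.1, 158.1 and 149.9, and AT2G32030, at 183.7, 168.7 and 171.2 against 210.5, 184.2 and 136.7 with mock, did not share that split. Without DCA replicate 1 the median DCA change of the members was 0.039, and 1 member was called.

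That member, the unnamed 266142_at, was called lower. It read 688.7, 696.5 and 525.8 with mock at 6 d and 396.7, 94.37 and 79.47 with DCA. All 3 DCA arrays were below mock, and replicate 1 was the nearest to it. Its change of -2.14 ± 0.42 (SE) was the lowest DCA change at 6 d of all 13685 tested probe sets, with limma's adjusted p = 0.701 on all arrays, and -2.87 with 0.000135 without DCA replicate 1. At 48 h it had read 107.6, 73.14 and 149.4 with mock and 623.1, 636.8 and 635.4 with DCA.

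**Figure D4:**
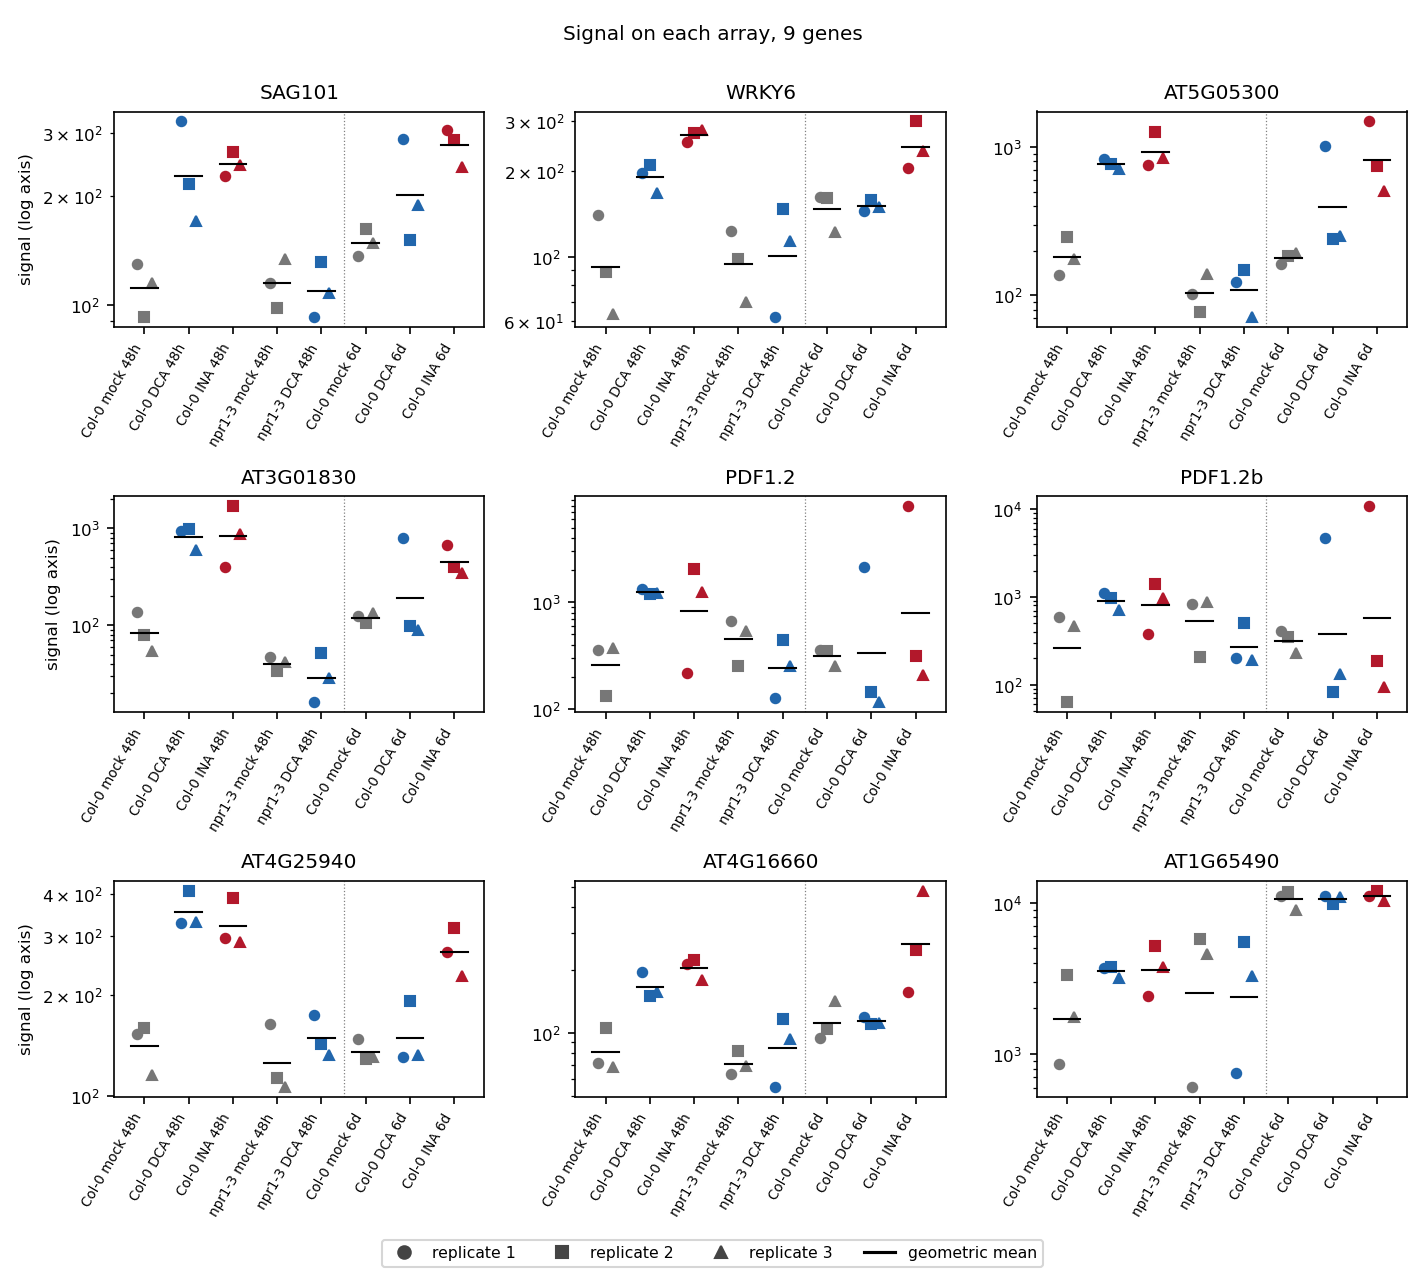
Deposited signal on each array, on a log axis, for 9 named genes in the 8 groups, with 1 symbol per replicate number and a black bar at the geometric mean of 3 arrays. Grey marks mock, blue DCA and red INA, and the dotted line parts 48 h from 6 d. PDF1.2, PDF1.2b, AT5G05300 and AT3G01830 show DCA replicate 1 of 6 d far above the other 2, and AT1G65490 shows all 9 arrays of 6 d above all 15 arrays of 48 h.

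DCA and INA were compared directly at 6 d, at the same dose and in the same accession, as 1 pair of compounds. Both are dichlorinated aromatic carboxylic acids. DCA has a benzene ring with an amino group and INA a pyridine ring without one. The DCA mean was below the INA mean in 47 of the 49, with a median difference of -0.63. Over all tested probe sets it was below in 7397 of 13685, with a median of -0.029. All 3 DCA arrays lay below all 3 INA arrays in 19 members (6.77% of all) and above in 0 (3.4%). At 48 h, on the arrays of the selection, the median difference was -0.03.

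By limma, 3 members were lower with DCA than with INA at an adjusted p under 0.05 and 0 were higher (0.197% and 0.00731% of all tested). All 3 are unnamed and were also among those raised by INA. They were 245035_at with -2.35 (adjusted p = 0.00202), 255941_at with -1.91 (0.012) and 251673_at with -3.39 (0.0306). With DCA 245035_at read 107.8, 256.1 and 169.1, below every INA array given above. It alone kept its call in each of 6 fits that omitted a DCA or INA array. In these fits the count was 5 without INA replicate 1, 4 without DCA replicate 1, of which 2 were among the 3, and 1 without INA replicate 2, INA replicate 3, DCA replicate 2 or DCA replicate 3. Leaving out replicate 1, 2 or 3 of all groups of 6 d, chosen after seeing the data, gave 5, 1 and 0. Without replicate 3 the call of 245035_at was thus lost too. The replicate numbers paired the DCA and INA arrays of 6 d, and the main fit did not use this. With the replicate number as a block shared by all groups, mock included, 258941_at was added. Its adjusted p went from 0.05, just over the limit, to 0.0288. No fit paired the DCA and INA arrays of 6 d alone, so calls under such pairing were not tested.

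No named member passed the direct comparison, in which the arrays were treated as unpaired. For AT4G16660 the difference was -1.23 ± 0.32 (SE), with limma's adjusted p = 0.162, and 0.0167 without INA replicate 1. Its DCA arrays, 118.7, 110.5 and 111.9, were within the mock arrays and below every INA array. For AT4G25940, with DCA arrays of 130.7, 192.2 and 132.4, it was -0.85 ± 0.22 with an adjusted p of 0.144. For AT5G05300 and AT3G54150 it was -1.06 and -0.73, with adjusted p-values of 0.739 and 0.908. The interval of a single difference had a median half-width of 0.79.

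Members with a larger INA change at 48 h tended to have a larger one at 6 d. Over the 49 probe sets Pearson's r was 0.73 and Spearman's rho 0.68. For DCA they were 0.0041 and 0.13. These values describe probe sets that share their arrays and were chosen at 48 h, and genes are not independent replicates. The 48 h changes are those of the selection, so nothing is read from the values or from their difference between the elicitors. Single probe sets with extreme changes are included, 251673_at with INA (4.63 and 4.33) and 266142_at with DCA (2.58 and -2.14). INA changes at 6 d were at least 50% of those at 48 h in 32 members, and DCA changes in 5. The 48 h changes had to be at least 1 by the selection, and no share over other probe sets was taken. Nothing is read from these counts.

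The mock level itself had moved between the times. Mock at 6 d minus mock at 48 h had a median of 0.30 over the members against 0.073 over all tested, and was at least 1 in 13 (4.02% of all). Because a low mock signal at 48 h helped a probe set to pass, nothing is read from this. The largest values were 2.62 for AT1G65490 and 2.58 for 266142_at, and AT3G47540 and AT1G72920 had 1.41 and 1.04. Both of the latter had a mock signal at 6 d about as high as their elicited signal at 48 h.

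Of the 289 probe sets at least 2-fold higher with both elicitors in Col-0 at 48 h, 100 had a DCA change of at least 1 in npr1-3 too, and 140 one of 0.3 to under 1. The 100 had larger changes in Col-0 at the time of selection, with medians of 1.82 with DCA and 2.27 with INA. With DCA at 48 h the mutant mean was below the wild-type mean in 93 of the 100, and by at least 1 in 59. The median of this difference was -1.16, so a lower level in the mutant with DCA was not particular to the members. At 6 d their median INA change was 1.66 and 55 were called, against 0.85 and 12 of 49 for the members. Their median DCA change was 0.42 with 0 called. The difference between these sets was not tested.

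Lists of the surrounding pathways held few genes that the annotation ties to a probe set, and were chosen with earlier results of these data known. Of 18 NPR1 and TGA regulators, 1 was tested: GRX480, a glutaredoxin that binds TGA factors, which is not a member because its DCA change in npr1-3 was 1.27. It had an INA change of 1.88 at 6 d with limma's adjusted p = 0.178. Of 10 genes of salicylic acid response and systemic acquired resistance, 2 were tested and 0 called at 6 d with either elicitor: CaBP22, a calmodulin-like protein, with an INA change of 0.80 (adjusted p = 0.197), and SARD4, which acts in pipecolic acid synthesis, with 0.58 (0.54). Of 17 WRKY factors 2 were tested, the member WRKY6 and WRKY53, whose INA change was 1.56 (0.232), and of 15 genes of salicylic acid synthesis and the EDS1 pathway the 1 tested was the member SAG101. Of 21 genes of jasmonate and ethylene defence, the 2 tested were the member defensins. Of 21 genes of protein folding and entry at the endoplasmic reticulum 6 were tested, and 1 was called higher with INA at 6 d and 0 lower, the translocon subunit gene SEC61B at AT3G60540, with a change of 1.87 (0.0131). Of 31 cysteine-rich receptor-like and wall-associated kinases, the annotation ties 0 to a probe set. With DCA at 6 d, 0 members of any of these lists were called.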

How the data were processed

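The authors' deposited values are signal intensities on a linear scale from GCOS, the Affymetrix array software, whose version the submitters' processing notes do not give. From the values, each array had already been scaled to nearly the same trimmed mean (2% left out at either end). The number of arrays, 3 a group, limits the precision. A sample was found for each of the 24 columns, leaving 0 unused.

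The log2 was taken of signals with a floor of 1. After 64 control probe sets were left out, those with a mean log2 of at least 6.2 (a signal of 73.52) were tested. A model with 1 mean for each of the 8 groups was fitted with limma 3.58.1 in R 4.3.3 (eBayes with an intensity trend, 16 residual degrees of freedom, median prior of 4.45). The 3 comparisons at 6 d share arrays and also the spread estimated from the 48 h arrays that chose the members. Tests were two-sided, with Benjamini-Hochberg adjustment within a comparison. The fit was tested on simulated data. Figures used matplotlib 3.10.9 in Python 3.11.15.

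The members and lists were chosen with earlier results of these data known. Named genes have 1 gene in the platform annotation, updated to RefSeq TAIR10.1 names: members on a gene list, the largest 48 h changes, called members, the lowest 6 d sums, those nearest the limits, and extremes of npr1-3. Others are said to be named after their values were seen. Of the tested probe sets, 7360 had 1 gene, 272 several and 6053 none.

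Replicate numbers are shared between groups by the labels. Deviations from the group means of same-numbered DCA and INA arrays at 6 d correlated at 0.75, 0.57 and 0.46, so the numbers pair these. For INA and mock they were 0.019, 0.14 and 0.34, and for DCA and mock -0.015, 0.084 and 0.090, so they do not pair those. Alternatives were another filter, no filter, quantile normalization, a floor of 32, no trend, the 9 arrays of 6 d alone, a replicate block and leaving out arrays. Promoter and protein sequences were not used here.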

Additional observations from a re-analysis of the deposited data

Results flagged for a closer look

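A rise of the mean at 48 h was required of all 49 members by the selection. At 6 d the DCA change had the opposite sign, negative, in 13 of them and was positive in 36. The INA change was negative in 4 and positive in 45. Listed here are only those with all 3 elicited arrays above all 3 mock arrays at 48 h and below all 3 at 6 d. The difference between the times was not tested. With DCA these were AT3G60440 (1.03 at 48 h, -0.22 at 6 d), AT3G47540 (1.29, -0.197), AT1G72920 (1.2, -0.724) and the unnamed 266142_at (2.58, -2.14). With INA they were AT1G72920 (1.04, -0.373) and 266142_at (2.68, -0.678). All 3 arrays lay below mock at 6 d in 4 of the 49 members with DCA, against 7.96% of all tested probe sets, and in 2 of the 49 with INA, against 13.2%. The members were thus near or under the general share, and nothing is read from these counts. Mock at 6 d was above mock at 48 h in AT3G60440, AT3G47540, AT1G72920 and 266142_at, by 1.02, 1.41, 1.04 and 2.58. A low mock signal at 48 h helped a probe set to pass. None of the 6 d changes listed here passed limma's threshold on all arrays.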

How the results depend on the processing

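The number of members, 49, was 47 under quantile normalization and 55 with a floor of 32 (38 and 48 shared). It ran from 34 to 96 when 1 array of 48 h was left out. Members called higher with INA at 6 d, 12, were 10 to 13 with other filters, floors or normalization or without the trend, 7 in the fit of the 9 arrays of 6 d alone, and 3 to 11 when arrays were left out. Leaving out replicate 1, 2 or 3 of all groups of 6 d, chosen after seeing the data, gave 8, 4 and 3. The median INA change ran from 0.779 to 0.944. Members called with DCA against mock were 0 to 1, and the median from 0.0389 to 0.371. For DCA against INA, 3 members ran from 0 to 5 (2 in the fit of 9 arrays), and the median from -0.78 to -0.491. With the replicate block, shared by all groups, 15 members were called with INA, 0 with DCA and 4 between the compounds. It added SAG101 (adjusted p = 0.0419) and AT4G03450 (0.0407) with INA, where the numbers do not pair the arrays, and changed no other call of a named gene. AT5G05300, AT3G54150, AT4G25940 and AT4G16660 had adjusted p-values of 0.0901, 0.15, 0.0587 and 0.138 on the 9 arrays alone. AT4G16660 had 0.0522 under quantile normalization and 0.0935 without a filter, and AT4G14610 had 0.0467 with a floor of 32. No call at 6 d, 12 with INA and 3 between the compounds, changed sign under the 19 other settings. Of the 23 named members, 4 changed sign under at least 1 setting with INA, 14 with DCA and 5 between the compounds, among them PDF1.2 and PDF1.2b without INA replicate 1 (-0.31 and -1.29 with INA). Detection calls were not used here, so dim probe sets were not sorted by signal over background.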
